A study of Mus musculus with 12 samples.

Results

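Glycolysis and the transcriptional response to low oxygen were read in cultured mouse limb muscle fibro-adipogenic progenitors (FAPs) through 36 genes, taken by symbol from a list of glycolytic enzymes, glucose and lactate transporters and targets of hypoxia-inducible factor (HIF). The rule goes by symbol and uses no measured value. The 36 genes are 36 of the 55335 gene rows in the count files, and all of them passed the low-count filter that left 16597 genes for testing. Glycolysis turns glucose into pyruvate in the cytosol, and lactate dehydrogenase and the monocarboxylate transporters then remove part of that carbon as lactate. HIF is a pair of an alpha subunit, which prolyl hydroxylases mark for destruction while oxygen is present, and a stable beta subunit. When oxygen falls, the pair binds short CGTG-containing motifs and raises transcription of most glycolytic genes, of kinases that keep pyruvate out of mitochondria, and of genes for vessel growth, mitophagy and collagen folding. FAPs are mesenchymal cells between the muscle fibres, which secrete collagen and can become fibroblasts or adipocytes.

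Each of 4 groups held 3 RNA-seq libraries, and the study asked what loss of Bap1, a nuclear deubiquitinase, did to FAPs and what SMN, the protein deficient in spinal muscular atrophy, did in cells without it. Smn1OE_K186R cultures carried the Bap1 deletion and a vector for human SMN with the K186R point mutation, and Smn1OE cultures carried the deletion and a vector for unmutated SMN. Bap1KO cultures carried the deletion alone, and WT cultures, from wild-type mice per the labels, had the undeleted gene. Deletion was induced with 4-hydroxytamoxifen (4-OHT) at 1 μM, and WT cultures received ethanol. All groups were sorted from limb muscle as live Lin- Vcam- Sca1+ cells and grown in alpha-MEM with 20% serum, with the medium exchanged 24 h after 4-OHT was added. The treatment text names Rosa-CreER as the driver of deletion, whereas the source text names Prrx1Cre;Bap1f/f mice, and the ages of the mice are not given in the sources used here. The design has no group with 4-OHT and intact Bap1, none with an empty vector and none with SMN and intact Bap1. Bap1KO and WT libraries shared culture media batches A, B and C, 1 library of each group per batch, and both SMN groups shared batches D, E and F. Batch and SMN vector therefore cannot be told apart. The labels do not say that replicates came from separate animals, so the p-values measure the spread between these samples, which may be technical.

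Library totals lay between 51.2 and 68.2 M counts. Reads assigned to Smn1 averaged 3940 and 4760 CPM (counts scaled to a common library size, the unit of all levels here) in Smn1OE_K186R and Smn1OE, against 32.9 CPM in Bap1KO and 33.6 CPM in WT, and Bap1 RNA averaged 45.3, 49.1, 40.3 and 50.5 CPM in the same order. Which exons of Bap1 the deletion removes is not given in the sources used here, so its residual counts do not check the deletion. All 10 FAP and fibroblast markers were detected, with a summed level of 5610 to 8160 CPM in Smn1OE_K186R, 4650 to 7450 CPM in Smn1OE, 12700 to 22900 CPM in Bap1KO and 20300 to 30100 CPM in WT. The sum is made up mainly of Col1a1, Col1a2 and Col3a1. Against Bap1KO, 7 of the 10 were called lower (adjusted p under 0.05) in Smn1OE_K186R and 8 in Smn1OE, while Cd34 went the other way and was called higher, by 1.37 (adjusted p = 0.00904) in Smn1OE_K186R and 1.47 (adjusted p = 0.00612) in Smn1OE on the log2 scale. Without Bap1KO replicate 2, 8 of the 10 FAP and fibroblast markers were called lower than Bap1KO in each SMN group. Of 8 myogenic markers 2 reached a mean of 1 CPM, Des and Acta1, while Myf5 was at 0 in every library. The summed myogenic level was 266 to 554 CPM in Smn1OE_K186R, 338 to 597 CPM in Smn1OE, 144 to 341 CPM in Bap1KO and 107 to 154 CPM in WT. Nearly all of it was Acta1, whereas Des averaged 1.58, 1.76, 1.94 and 3.89 CPM in that order of groups. Xist, transcribed from the inactive X chromosome, averaged 0.0425 and 0.0163 CPM in Smn1OE_K186R and Smn1OE, against 252 CPM in Bap1KO and 228 CPM in WT, so the sex of the source animals also separates the SMN groups from the rest and cannot be told apart from the vector. On the first principal component, which held 59% of the variance, Bap1KO replicate 2 lay at -14.6, apart from the other Bap1KO libraries at -60.5 and -38.7 and toward the SMN libraries at 41.3 to 76.9. Counts, medians and the Pfkp and Ldhb shares that use Bap1KO, in fits without a batch term, are therefore also given without Bap1KO replicate 2. The same holds for single members of the 36 where that omission changes a call. WT replicate 2, also of batch B, lay at -58.1, against -81.4 and -75.3 for the other WT libraries.

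Per kilobase of exon, enzymes of the shared trunk of glycolysis were the most abundant of the 36 genes. Gapdh, the glyceraldehyde-3-phosphate dehydrogenase, averaged 740, 767, 952 and 871 CPM per kb in Smn1OE_K186R, Smn1OE, Bap1KO and WT. Pkm, the pyruvate kinase of most dividing cells, followed at 622, 619, 714 and 588 CPM per kb, and Aldoa, the muscle-type aldolase, averaged 519, 548, 572 and 519 CPM per kb. Aldoa was the third most abundant in each group except WT, where Ldha averaged 524 CPM per kb. Aldoc, the brain-type aldolase, had the lowest length-scaled level in each group. The 16 enzymes from hexokinase to lactate dehydrogenase together took 1.44 ± 0.108% of all counts in Smn1OE_K186R, 1.48 ± 0.107% in Smn1OE, 1.63 ± 0.0907% in Bap1KO and 1.44 ± 0.0404% in WT (SD, n = 3 each). With its replicate 2 left out the Bap1KO mean was 1.61%. The heat map shows each gene by library relative to WT.

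**Figure D1:**
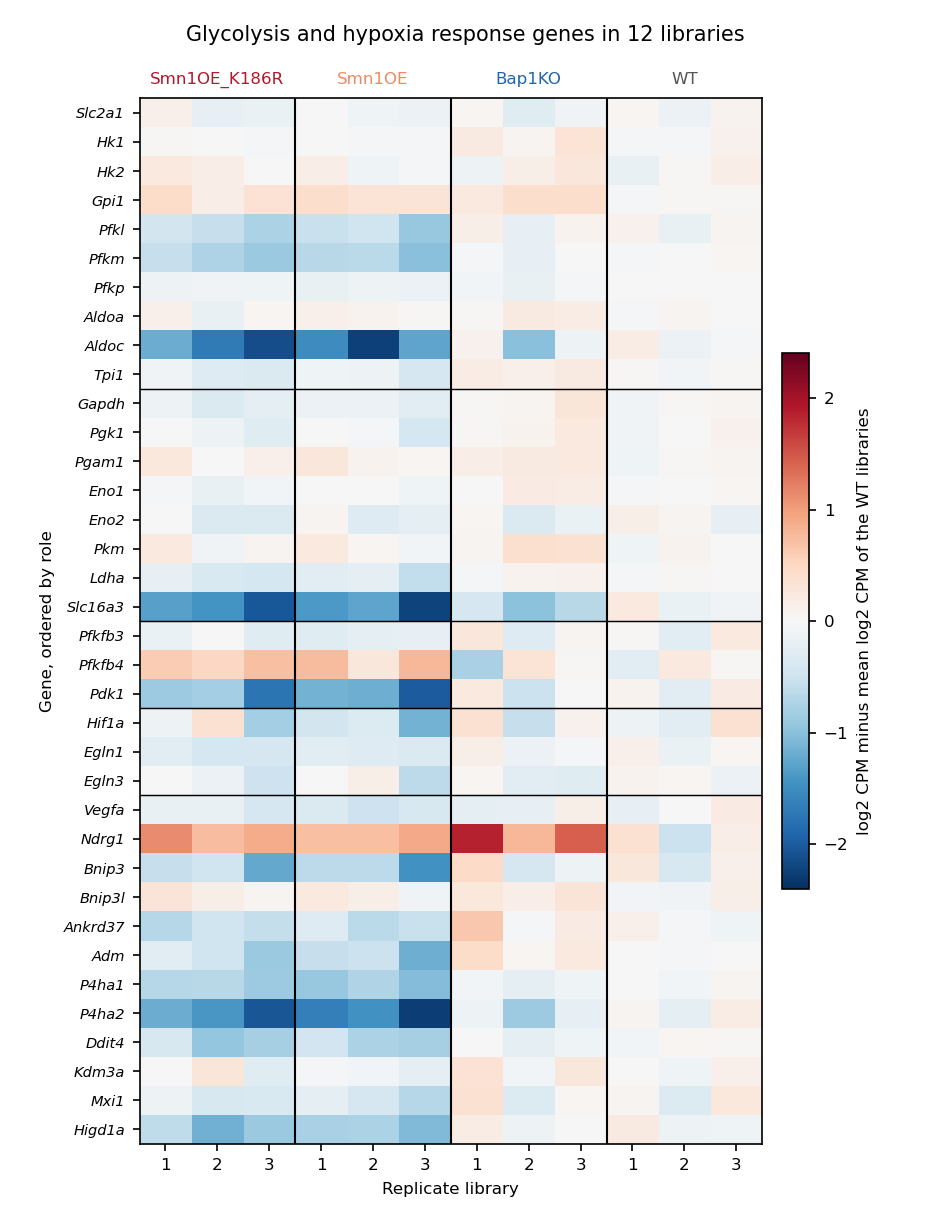
Log2 CPM of each of the 36 genes (rows, ordered by role) in each of the 12 libraries (columns, by group), minus that gene's mean log2 CPM over the WT libraries; the colour scale runs from blue (lower than WT) to red (higher than WT). P4ha2, Slc16a3, Pdk1 and Aldoc are blue in all 6 SMN libraries, Ndrg1 is red in all Bap1KO libraries, and Slc2a1 and Aldoa stay pale in every column.

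Promoter sequences are shown for 4 genes called lower in each SMN group, whether set against Bap1KO or against WT. Among genes with such calls and a single promoter window, they had the lowest log2 fold change averaged over those comparisons. They are P4ha2 and P4ha1, the catalytic alpha subunits of collagen prolyl 4-hydroxylase, Slc16a3, the lactate exporter MCT4, and Higd1a, a small mitochondrial inner membrane protein. Each window runs from 250 bases before to 50 bases after the start of the gene and comes from RefSeq (GRCm38.p6). Capitals mark ACGTG on the printed strand or CACGT, the same motif on the other strand, one of the core motifs that HIF recognises.
P4ha2 (chr11:54100674-54100973, plus strand): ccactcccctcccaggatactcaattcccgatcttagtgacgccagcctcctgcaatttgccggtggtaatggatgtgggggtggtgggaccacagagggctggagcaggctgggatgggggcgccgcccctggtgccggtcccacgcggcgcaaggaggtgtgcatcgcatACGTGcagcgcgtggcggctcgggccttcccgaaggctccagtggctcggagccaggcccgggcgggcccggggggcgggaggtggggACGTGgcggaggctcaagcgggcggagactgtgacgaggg
Slc16a3 (chr11:120948817-120949116, plus strand): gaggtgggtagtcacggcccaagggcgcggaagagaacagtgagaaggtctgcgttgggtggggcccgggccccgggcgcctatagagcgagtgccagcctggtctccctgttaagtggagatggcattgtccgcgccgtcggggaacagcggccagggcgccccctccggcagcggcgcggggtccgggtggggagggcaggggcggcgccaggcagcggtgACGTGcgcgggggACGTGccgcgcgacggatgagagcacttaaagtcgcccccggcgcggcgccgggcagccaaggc
Higd1a (chr9:121857747-121858046, minus strand): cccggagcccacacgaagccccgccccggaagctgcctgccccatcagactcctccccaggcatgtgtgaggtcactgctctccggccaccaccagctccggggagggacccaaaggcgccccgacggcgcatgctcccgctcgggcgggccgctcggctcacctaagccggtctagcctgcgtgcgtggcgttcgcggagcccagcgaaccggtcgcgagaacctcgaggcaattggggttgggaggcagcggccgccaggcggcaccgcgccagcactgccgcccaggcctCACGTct
P4ha1 (chr10:59323046-59323345, plus strand): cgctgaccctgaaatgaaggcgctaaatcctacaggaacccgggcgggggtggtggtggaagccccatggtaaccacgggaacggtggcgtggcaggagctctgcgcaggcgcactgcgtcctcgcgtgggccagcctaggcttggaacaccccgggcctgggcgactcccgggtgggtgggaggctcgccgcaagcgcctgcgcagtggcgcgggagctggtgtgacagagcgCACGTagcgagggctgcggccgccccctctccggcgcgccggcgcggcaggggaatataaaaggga
P4ha2 and Slc16a3 held 2 matches each, and Higd1a and P4ha1 held 1 each. Of the other genes called lower in all these comparisons, Adm, Pfkl and Pdk1 had no match in any window, and the rest had a match. Of genes called in none of them, Pgk1, Hk2 and Hif1a held 2, 2 and 3 matches, while Pfkp, Eno2 and Kdm3a held none. A link between the motif and the calls was not tested.

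RefSeq windows were found for 34 of the 36 genes, 52 windows in all, and none for Bnip3l and Ndrg1. ACGTG, searched on both strands, occurred in 28 of the 52 windows, or 53.8%, against 19.6% of the 32851 windows of all genes. The other core motif, GCGTG or CACGC, was also in 28 windows, or 53.8%, against 32.4% of all windows. ACGTG is contained in the E-box CACGTG, which other factors bind, but none of the 4 printed windows held that longer motif. The windows of the 36 genes had a median GC content of 62.7%, against 52.7% over all windows, and several windows can belong to 1 gene. The 36 genes were listed in part as targets of HIF, so their higher shares are not independent of that choice. These matches describe the letters and do not show binding.

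Smn1OE cultures held less RNA of 17 of the 36 genes than Bap1KO cultures, and more of 1, Pfkfb4 (adjusted p under 0.05, here termed called). Over all genes tested, 33.5% were called in this comparison, 17.7% lower and 15.8% higher. Smn1OE_K186R cultures held less of 16 genes and more of 1, again Pfkfb4, against 32.6% of all genes called, 16.5% lower and 16.1% higher. The comparisons share the Bap1KO libraries. The median log2 fold change of the 36 genes was -0.32 for Smn1OE and -0.29 for Smn1OE_K186R, against -0.01 over all genes in each case, and 33 of the 36 values were negative in each. In bulk RNA, fewer cells of a kind and less RNA per cell cannot be told apart. Without Bap1KO replicate 2, 22 genes were lower and 1 higher in Smn1OE, with a median of -0.40, against 32.9% of all genes called, 17.4% lower and 15.5% higher. In Smn1OE_K186R 18 were then lower and 1 higher, with a median of -0.35, against 31.1% of all genes, 15.9% lower and 15.1% higher.

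Of the 5 role groups, the one of other HIF targets had the lowest median in both comparisons. It holds 12 genes, and HIF targets placed in another role group, such as Pdk1 and Egln3, are not among them. Against Bap1KO, 7 of the 12 were called lower in Smn1OE (median log2 fold change -0.70) and 6 in Smn1OE_K186R (median -0.60). All 12 values were negative in both. Of the 10 genes for hexose entry and the first steps, 5 were lower in Smn1OE (median -0.16) and 4 in Smn1OE_K186R (median -0.17). Of the 8 genes from Gapdh to lactate export, 3 were lower in Smn1OE (median -0.23) and 4 in Smn1OE_K186R (median -0.24). Among the 3 regulators of flux and the 3 genes of HIF and oxygen sensing, 1 of each group, Pdk1 and Egln1, was called lower in each comparison. Without Bap1KO replicate 2, 11 of the 12 other HIF targets were lower in Smn1OE (median -0.84) and 8 in Smn1OE_K186R (median -0.70). The genes of the first steps then had 5 lower in each (medians -0.19), and those from Gapdh to lactate export 3 in each (medians -0.22 in Smn1OE and -0.23 in Smn1OE_K186R). Library ranges of 19 genes lay wholly below those of Bap1KO in Smn1OE and of none above, against 48.6% of all genes with no overlap, 24.7% below and 24% above. In Smn1OE_K186R, 19 lay wholly below and 1 above, against 43.7% of all genes, 22% below and 21.7% above. With Bap1KO replicate 2 left out, the ranges of 26 genes lay below in Smn1OE and 1 above, against 62.4% of all genes, 31.6% below and 30.9% above. In Smn1OE_K186R it was 23 below and 1 above, against 56.3%, 28.6% below and 27.8% above.

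**Figure D2:**
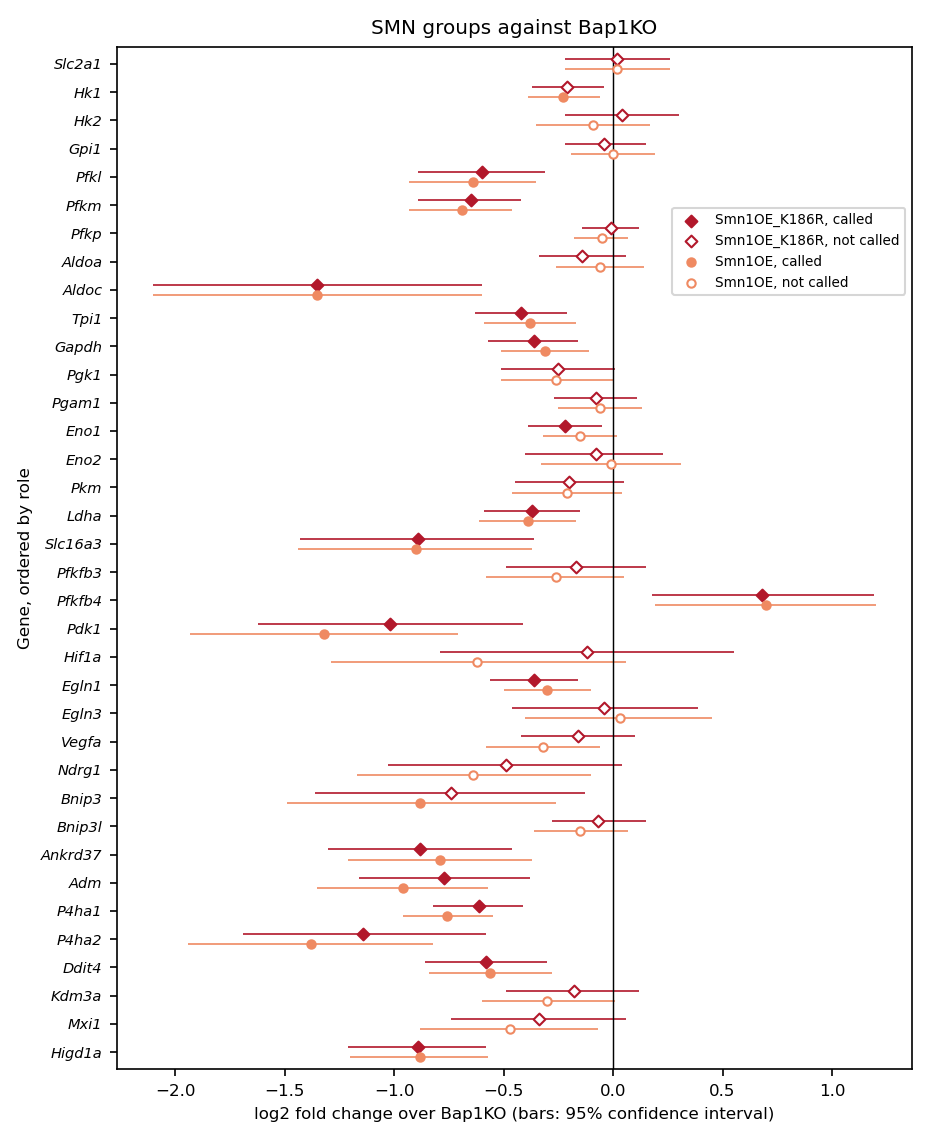
Log2 fold change of each of the 36 genes in Smn1OE_K186R and in Smn1OE against Bap1KO (x axis) with 95% confidence intervals; filled points were called at an adjusted p under 0.05. The points for P4ha2, Aldoc and Pdk1 lie farthest left, at -1.38, -1.35 and -1.32 in Smn1OE, and Pfkfb4 lies at 0.68 and 0.70 on the right.

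P4ha2 and P4ha1, whose enzyme hydroxylates proline in collagen so that the triple helix is stable, were lower in both SMN groups. P4ha2 read 192, 167 and 106 CPM in Smn1OE_K186R, 141, 161 and 91.8 CPM in Smn1OE, 401, 240 and 382 CPM in Bap1KO and 457, 374 and 495 CPM in WT. All 6 SMN libraries lay below all 6 others, and Bap1KO replicate 2 was the closest of those. Against Bap1KO, P4ha2 fell by 1.38 (SE 0.26, adjusted p = 0.00248) on the log2 scale in Smn1OE and by 1.14 (adjusted p = 0.00662) in Smn1OE_K186R. P4ha1 read 271, 277 and 238 CPM in Smn1OE_K186R, 234, 267 and 212 CPM in Smn1OE, 420, 379 and 407 CPM in Bap1KO and 439, 420 and 456 CPM in WT. Its SMN libraries were again all below the rest, while the highest Bap1KO library, at 419.5 CPM, was level with the lowest WT library, at 419.6 CPM. P4ha1 fell by 0.76 (SE 0.09, adjusted p = 0.000319) in Smn1OE and by 0.61 (adjusted p = 0.00103) in Smn1OE_K186R, on the log2 scale. The substrates moved the same way. Col1a1, Col1a2 and Col3a1 had log2 fold changes of -1.57, -1.90 and -2.51 in Smn1OE and -1.33, -1.59 and -1.99 in Smn1OE_K186R against Bap1KO, each called. These collagens belong to the fibroblast marker list, and the part of that list in the P4ha1 and P4ha2 values was not tested.

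Slc16a3 and Pdk1 govern where pyruvate goes, the one by exporting lactate and the other by inhibiting pyruvate dehydrogenase. Slc16a3 read 75.8, 69.3 and 45.7 CPM in Smn1OE_K186R, 71.4, 77.5 and 40.2 CPM in Smn1OE, 142, 94.4 and 117 CPM in Bap1KO and 219, 168 and 177 CPM in WT. The 4 groups formed 3 steps with no overlap, the SMN groups together at the bottom, Bap1KO in the middle and WT on top. Against Bap1KO its log2 fold change was -0.90 (SE 0.25, adjusted p = 0.0151) in Smn1OE and -0.89 (adjusted p = 0.0166) in Smn1OE_K186R. Both calls were lost without Bap1KO replicate 1, at adjusted p = 0.0585 and 0.0609, and the call for Smn1OE_K186R also without its replicate 3, at 0.0563. Pdk1 read 22.5, 23.6 and 12.3 CPM in Smn1OE_K186R, 18.7, 18.3 and 10.4 CPM in Smn1OE, 48.8, 28.8 and 41 CPM in Bap1KO and 43.7, 34 and 47.4 CPM in WT. Every SMN library was below every other library, the lowest being the pair from batch F. Pdk1 changed by -1.32 (SE 0.28, adjusted p = 0.00457) in Smn1OE and by -1.02 (adjusted p = 0.016) in Smn1OE_K186R, and the second call was lost without Bap1KO replicate 1 (adjusted p = 0.0589).

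**Figure D3:**
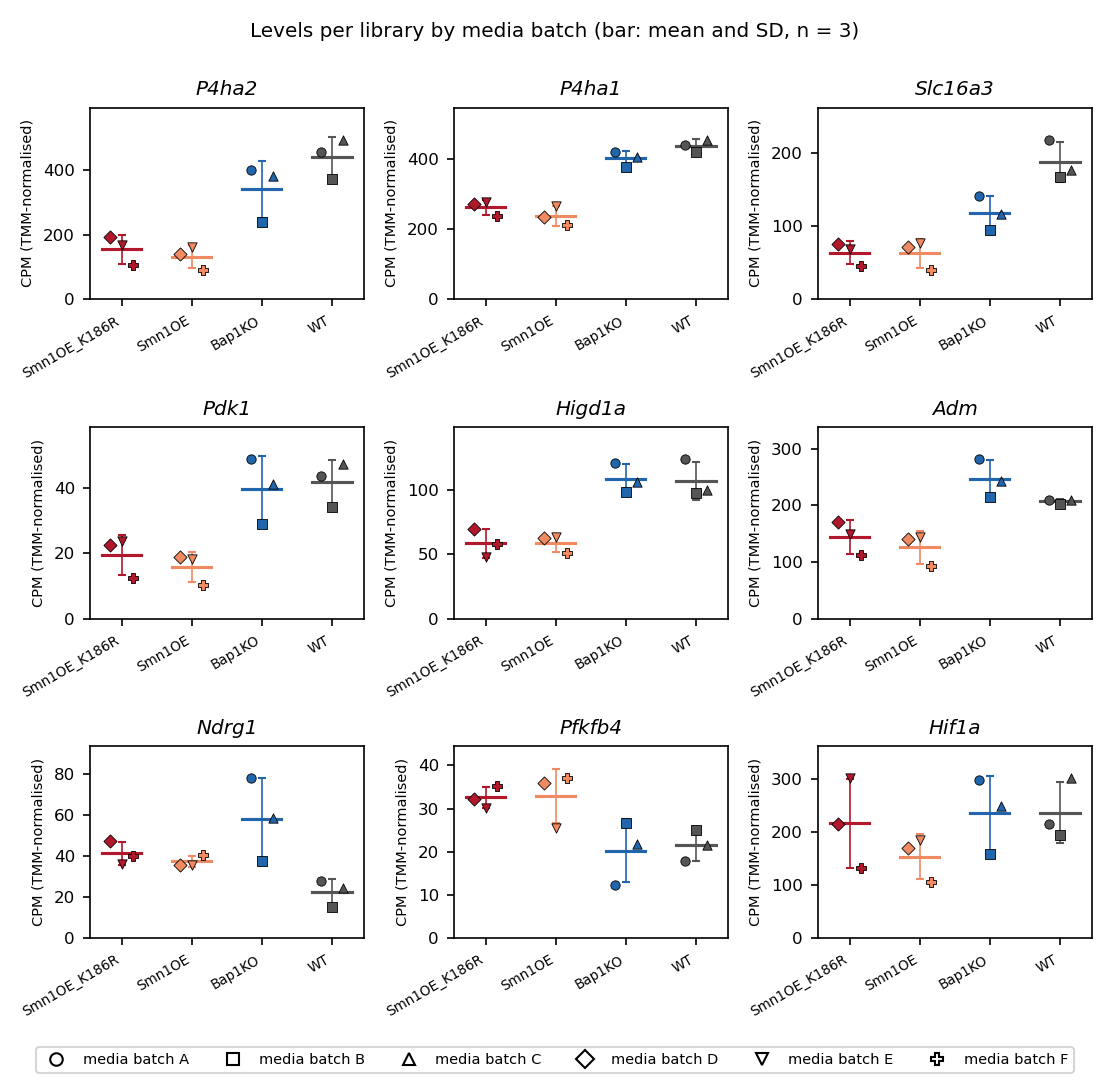
CPM (y axis, from 0) of 9 of the genes in each library, by group; marker shapes give the culture media batch, horizontal bars the group mean and error bars the SD (n = 3). P4ha2 and Pdk1 show all 6 SMN libraries below all Bap1KO and WT libraries, Ndrg1 shows every WT library at 27.7 CPM or less and every other library at 35.8 CPM or more, and Hif1a shows wide overlap.

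Adm, Higd1a and Aldoc were also lower with SMN. Adm, which encodes the vasodilator peptide adrenomedullin, read 171, 149 and 112 CPM in Smn1OE_K186R, 141, 145 and 92.2 CPM in Smn1OE, 282, 214 and 243 CPM in Bap1KO and 209, 203 and 209 CPM in WT. Bap1KO was the highest group and overlapped none of the others. Adm changed by -0.96 (SE 0.18, adjusted p = 0.00239) in Smn1OE and by -0.77 (adjusted p = 0.00751) in Smn1OE_K186R against Bap1KO. Higd1a read 69.7, 47.8 and 57.8 CPM in Smn1OE_K186R, 62.5, 63.1 and 50.9 CPM in Smn1OE, 121, 98.4 and 106 CPM in Bap1KO and 124, 97.8 and 99.6 CPM in WT. Here Bap1KO and WT overlapped and both stood clear of the SMN groups, by -0.88 (adjusted p = 0.00132) in Smn1OE and -0.89 (adjusted p = 0.00142) in Smn1OE_K186R against Bap1KO. Of the 100-base windows of Higd1a, 32.3% also occur in other genes, whose reads came to 0.38% of the Higd1a count. Aldoc was near the detection limit, at 1.05, 0.742 and 0.546 CPM in Smn1OE_K186R, 0.839, 0.507 and 1.0 CPM in Smn1OE, 2.59, 1.2 and 2.2 CPM in Bap1KO and 2.71, 2.18 and 2.34 CPM in WT. Its SMN libraries lay below all others, and its log2 fold change against Bap1KO was -1.35 in Smn1OE (SE 0.34, adjusted p = 0.0111) and -1.35 in Smn1OE_K186R (adjusted p = 0.0118). The Smn1OE_K186R call was lost without Bap1KO replicate 1 (adjusted p = 0.0506).

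Bnip3, Ddit4 and Ankrd37 completed the genes called lower in the role group of other HIF targets. Bnip3, a receptor that marks mitochondria for autophagy, read 74, 77.7 and 46.4 CPM in Smn1OE_K186R, 70.3, 70.6 and 39.4 CPM in Smn1OE, 150, 82 and 99.4 CPM in Bap1KO and 131, 82.6 and 118 CPM in WT. The groups with SMN lay below the others, by a narrow margin at batch B, where Bap1KO and WT each had their lowest library. Bnip3 changed by -0.88 (SE 0.28, adjusted p = 0.0324) in Smn1OE against Bap1KO and by -0.74 (adjusted p = 0.0617), not called, in Smn1OE_K186R. The first call was lost without Smn1OE replicate 3 (adjusted p = 0.115), Bap1KO replicate 1 (0.139) or Bap1KO replicate 3 (0.052), and the second value was called without Bap1KO replicate 2 (0.0331) and with media batch as a random effect (0.0319). Of its 100-base windows, 33.5% occur in other genes, whose reads came to 0.13% of the Bnip3 count. Ddit4, an inhibitor of mTORC1 signalling, changed by -0.56 (adjusted p = 0.00719) in Smn1OE and by -0.58 (adjusted p = 0.00647) in Smn1OE_K186R. Ankrd37, a small ankyrin-repeat protein, changed by -0.79 (adjusted p = 0.00904) and -0.88 (adjusted p = 0.00575) in the same order. Its exons overlap those of neighbouring genes, and the strand setting of the counting is not stated.

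The remaining genes of that role group were not called against Bap1KO in the fit over all 12 libraries. Vegfa, the main angiogenic growth factor, averaged lower in both SMN groups, with adjusted p = 0.0566 in Smn1OE, which became 0.0437 without Bap1KO replicate 2 and 0.0438 with media batch as a random effect. Mxi1, an antagonist of Myc, had adjusted p = 0.0675 in Smn1OE, or 0.0188 without Bap1KO replicate 2. Kdm3a, a histone demethylase, had 0.119, or 0.0388 without that library. Bnip3l, the close relative of Bnip3, was not called in either.

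Of the 3 phosphofructokinases, which catalyse the committed step of glycolysis, Pfkl and Pfkm fell and Pfkp did not pass the test. Pfkl, the liver-type subunit, read 167, 153 and 133 CPM in Smn1OE_K186R, 156, 163 and 120 CPM in Smn1OE, 248, 198 and 240 CPM in Bap1KO and 244, 200 and 236 CPM in WT. Pfkm, the muscle-type subunit, read 42.1, 37.1 and 33.7 CPM in Smn1OE_K186R, 39, 39.8 and 31 CPM in Smn1OE, 61, 54 and 62.7 CPM in Bap1KO and 60.6, 61.7 and 64.2 CPM in WT. In both genes all 6 SMN libraries were below all 6 others. Against Bap1KO, Pfkl changed by -0.64 (SE 0.13, adjusted p = 0.00432) in Smn1OE and -0.60 (adjusted p = 0.00649) in Smn1OE_K186R. Pfkm changed by -0.69 (SE 0.11, adjusted p = 0.000997) and -0.65 (adjusted p = 0.00151) in that order. Pfkp, the platelet-type subunit, read 72.4, 74.8 and 73.2 CPM in Smn1OE_K186R, 70, 72.3 and 71.9 CPM in Smn1OE, 75, 70 and 77.4 CPM in Bap1KO and 78.7, 78.6 and 79.6 CPM in WT, a narrow band with no gap between the SMN groups and Bap1KO. These 3 genes are given by library because the isozyme shares rest on them, a choice made after their values were seen.

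Length-scaled, Pfkl made up most of the phosphofructokinase RNA in every group, at 57.4% in Smn1OE_K186R, 57.3% in Smn1OE, 59.5% in Bap1KO and 58% in WT. The share of Pfkp was 14 ± 1.42% in Smn1OE_K186R and 14.1 ± 2.02% in Smn1OE, against 9.66 ± 0.534% in Bap1KO and 10.1 ± 0.609% in WT (SD, n = 3 each). The Bap1KO share was 9.37% with its replicate 2 left out. Its lowest SMN library, at 12.6%, was above the highest of the others, at 10.8%. The exact 2-sided permutation p was 0.1 for each SMN group against Bap1KO and against WT, the smallest that 3 against 3 allows, or 0.247 after adjustment over the 42 share differences tested. With the length of the longest transcript in place of merged exons, the shares were 13.7, 13.8, 9.49 and 9.98%. Of the 100-base windows of Pfkp, 16% also lie in the opposite-strand gene Pitrm1, so its level is uncertain if strand was not used in counting.

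**Figure D4:**
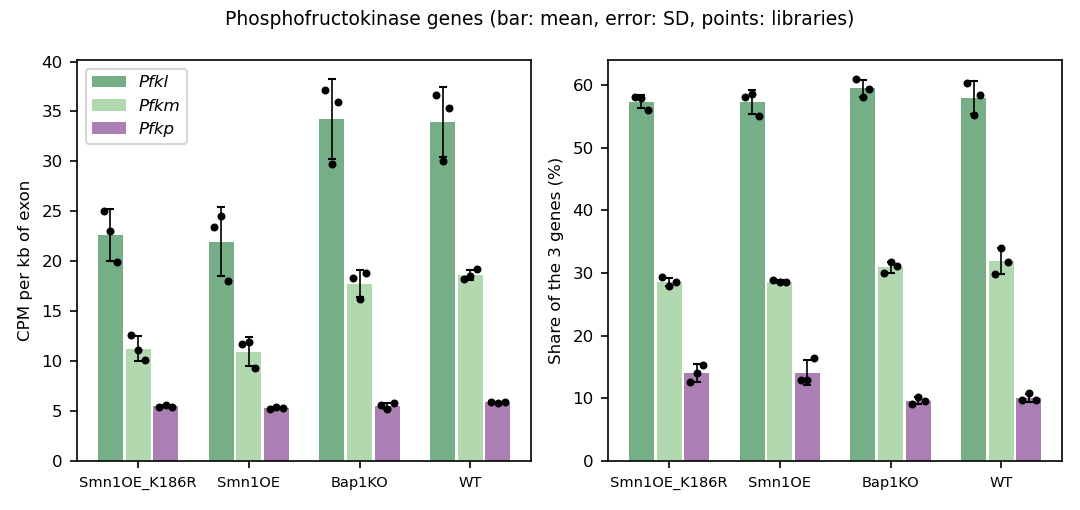
Phosphofructokinase isozymes Pfkl, Pfkm and Pfkp by library and group, as CPM per kb of exon and as percent of their sum; bars are group means, error bars SDs (n = 3) and points libraries. Pfkl and Pfkm per kb are lower in the SMN groups while Pfkp stays between 5.22 and 5.94 CPM per kb, and its share is 12.6% or more in every SMN library and 10.8% or less in the others.

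Past the phosphofructokinase step, Tpi1, Ldha and Gapdh were called lower in both SMN groups, as was Slc16a3. Tpi1, which interconverts the triose phosphates, read 654, 558 and 545 CPM in Smn1OE_K186R, 642, 640 and 525 CPM in Smn1OE, 788, 757 and 809 CPM in Bap1KO and 706, 666 and 708 CPM in WT. Bap1KO was the highest group, clear of the other 3. Tpi1 changed by -0.38 (adjusted p = 0.0102) in Smn1OE and -0.42 (adjusted p = 0.00676) in Smn1OE_K186R against Bap1KO. Ldha, which reduces pyruvate to lactate, averaged lower, by -0.39 (adjusted p = 0.0116) and -0.37 (adjusted p = 0.0158) in that order. These calls were lost without Smn1OE replicate 3 (0.0518), and without Smn1OE_K186R replicate 3 (0.0518) or Bap1KO replicate 3 (0.0523). Gapdh changed by -0.31 (adjusted p = 0.0242) in Smn1OE and -0.36 (adjusted p = 0.0121) in Smn1OE_K186R. It was no longer called in Smn1OE without Smn1OE replicate 1 (0.0516), Smn1OE replicate 3 (0.1) or Bap1KO replicate 3 (0.101), nor in Smn1OE_K186R without Bap1KO replicate 3 (0.0524) or with only the 6 libraries compared (0.0635). Of the 100-base windows of Gapdh, 78% also occur among 86 other genes, so its count depends on how such reads were handled. Reads counted at those genes came to 0.21% of the Gapdh count.

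Hk1 and Eno1 were called in 1 of these comparisons each in the fit over all 12 libraries, at small size. Hk1, the hexokinase of most tissues, read 177.6, 172.0 and 170.0 CPM in Smn1OE_K186R, 172.1, 169.3 and 171.4 CPM in Smn1OE, 200.9, 181.8 and 217.0 CPM in Bap1KO and 166.9, 168.1 and 186.5 CPM in WT. It differed from Bap1KO by -0.23 (adjusted p = 0.0378) in Smn1OE, a call that 5 of the 6 single-library omissions ended: Smn1OE replicates 1 (0.0821), 2 (0.0852) and 3 (0.0926) and Bap1KO replicates 1 (0.0984) and 3 (0.145). Size factors in place of TMM gave 0.0505, no low-count filter 0.09 and only the 6 libraries compared 0.0644. In Smn1OE_K186R its value was -0.21 (adjusted p = 0.0535), not called, but called without Bap1KO replicate 2 (0.0191). Eno1, an enolase, differed by -0.22 (adjusted p = 0.0482) in Smn1OE_K186R and lost its call without Smn1OE_K186R replicates 1 (0.0616), 2 (0.111) or 3 (0.0737) and Bap1KO replicates 2 (0.12) or 3 (0.13). It also lost it with size factors (0.064), no low-count filter (0.112) or only the 6 libraries compared (0.161). Of its windows, 59% occur in other genes, whose reads came to 0.06% of the Eno1 count. Slc2a1, the glucose carrier GLUT1, Hk2, the inducible hexokinase, and Gpi1, Aldoa, Pgk1, Pgam1, Eno2 and Pkm were not called in either comparison. Slc2a1 read 250, 200 and 205 CPM in Smn1OE_K186R, 233, 214 and 208 CPM in Smn1OE, 239, 189 and 217 CPM in Bap1KO and 239, 209 and 244 CPM in WT, with overlap between all 4 groups.

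Pfkfb4, a bifunctional enzyme that makes and degrades an activator of phosphofructokinase, was higher with SMN. It read 32.3, 30.2 and 35.2 CPM in Smn1OE_K186R, 35.9, 25.6 and 37 CPM in Smn1OE, 12.4, 26.7 and 21.7 CPM in Bap1KO and 17.8, 25.1 and 21.6 CPM in WT, and was singled out after its values were seen. Smn1OE_K186R stood above all Bap1KO and WT libraries, and Smn1OE replicate 2 fell within the Bap1KO range. Its log2 fold change was 0.70 (SE 0.23, adjusted p = 0.0383) in Smn1OE and 0.68 (adjusted p = 0.0412) in Smn1OE_K186R against Bap1KO. The Smn1OE call was lost without Smn1OE replicates 1 (0.109) or 3 (0.121), Bap1KO replicates 1 (0.105) or 3 (0.0716), or with only the 6 libraries compared (0.0818). The Smn1OE_K186R call was lost on leaving out each of its own replicates in turn (0.0762, 0.0634 and 0.102), without Bap1KO replicates 1 (0.117) or 3 (0.0748), or with only the 6 libraries (0.0748). Pfkfb3, the relative with the higher kinase activity, was called in neither fit, but was called in Smn1OE without Bap1KO replicate 2 (0.0332).

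Hif1a, the oxygen-labile subunit itself, varied widely among libraries. It read 215, 302 and 133 CPM in Smn1OE_K186R, 171, 185 and 106 CPM in Smn1OE, 299, 159 and 249 CPM in Bap1KO and 215, 195 and 302 CPM in WT, values given because the other members are named as its targets. Every pair of groups overlapped except Smn1OE and WT, where Smn1OE was lower. Its log2 fold change against Bap1KO was -0.62 (adjusted p = 0.144) in Smn1OE and -0.12 (adjusted p = 0.791) in Smn1OE_K186R, neither called. With no low-count filter the Smn1OE value had adjusted p = 0.0124. Against WT it was -0.62 (adjusted p = 0.112) in Smn1OE, or 0.0433 with only the 6 libraries compared and 0.00792 with no low-count filter. RNA of Hif1a does not report its protein, which is set mainly by hydroxylation. Egln1, the principal oxygen-sensing prolyl hydroxylase, changed by -0.30 (adjusted p = 0.0249) in Smn1OE and -0.36 (adjusted p = 0.0114) in Smn1OE_K186R. The first call was lost without Smn1OE replicates 2 (0.0583) or 3 (0.0812) or Bap1KO replicate 1 (0.116), and the second without Bap1KO replicate 1 (0.0519). Egln3, a hydroxylase induced by HIF, ranged from 7.16 to 12.2 CPM over all libraries and was not called.

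Against WT, Smn1OE was lower in 14 of the 36 genes and higher in 3, with 50.4% of all genes called, 26.6% lower and 23.8% higher. Smn1OE_K186R was lower in 15 and higher in 3, with 50.5% of all genes called, 26.5% lower and 24% higher. These comparisons share the WT libraries and span both the Bap1 deletion and the SMN vector. P4ha2 differed from WT by -1.75 (SE 0.26, adjusted p = 0.000233) in Smn1OE and -1.51 (adjusted p = 0.00057) in Smn1OE_K186R. Slc16a3 differed by -1.58 (SE 0.25, adjusted p = 0.00035) and -1.56 (adjusted p = 0.000362) in that order. Aldoc differed by -1.62 in each, Pdk1 by -1.40 and -1.10, and P4ha1 by -0.88 and -0.74, all called. Library ranges lay wholly below those of WT for 19 genes in Smn1OE and above for 3, against 62.4% of all genes with no overlap, 32.7% below and 29.7% above. In Smn1OE_K186R they lay below for 17 and above for 3, against 58.4% of all genes, 30.9% below and 27.5% above.

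Higd1a, Pfkm, Ddit4, Pfkl, Ldha and Egln1 were also called lower than WT. Their log2 fold changes were -0.87, -0.76, -0.67, -0.63, -0.34 and -0.31 in Smn1OE and -0.87, -0.72, -0.69, -0.59, -0.32 and -0.37 in Smn1OE_K186R. The Ldha calls were lost without Smn1OE replicate 3 (0.0603) and without Smn1OE_K186R replicate 3 (0.0618), and the Egln1 call in Smn1OE without WT replicates 1 (0.0606) or 3 (0.0529). Smn1OE_K186R was also lower in Ankrd37, at -0.58 (adjusted p = 0.0242), and in Tpi1, at -0.24 (adjusted p = 0.0497). Ankrd37 was no longer called without Smn1OE_K186R replicates 1 (0.0727) or 3 (0.0546), WT replicate 1 (0.0811) or the low-count filter (0.0608). Tpi1 was no longer called without Smn1OE_K186R replicates 2 (0.119) or 3 (0.15), WT replicates 1 (0.111), 2 (0.0628) or 3 (0.122), or under DESeq2 (0.0959).

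The 3 genes higher than WT in each SMN group were Gpi1, Ndrg1 and Pfkfb4. Gpi1, which converts glucose phosphate to fructose phosphate, was higher by 0.36 (adjusted p = 0.00481) in Smn1OE and 0.32 (adjusted p = 0.00854) in Smn1OE_K186R. Pfkfb4 was higher by 0.61 (adjusted p = 0.0445) and 0.60 (adjusted p = 0.0481) in that order. Omitting Smn1OE replicates 1 (0.122) or 3 (0.135), or WT replicates 1 (0.155) or 3 (0.0878), ended the first Pfkfb4 call. Omitting Smn1OE_K186R replicates 1 (0.0866), 2 (0.0675) or 3 (0.12), or WT replicates 1 (0.167) or 3 (0.0958), ended the second. Bnip3 was lower, at -0.88 (adjusted p = 0.0212) in Smn1OE and -0.74 (adjusted p = 0.0441) in Smn1OE_K186R. Its first call was lost without Smn1OE replicate 3 (0.0808), WT replicate 1 (0.078) or WT replicate 3 (0.0576). Its second was lost without Smn1OE_K186R replicates 1 (0.0579) or 3 (0.149), WT replicates 1 (0.142) or 3 (0.102), or with size factors (0.0502). Adm, at -0.71 (adjusted p = 0.00576) and -0.52 (adjusted p = 0.0282), lost its second call without Smn1OE_K186R replicates 2 (0.0524) or 3 (0.104) or WT replicates 1 (0.0643), 2 (0.0508) or 3 (0.0621). Vegfa was called lower in Smn1OE, at -0.41 (adjusted p = 0.013), but not without WT replicate 3 (0.0677).

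Between Bap1KO and WT, the share of the 36 genes called in either direction was not above the share over all genes. It was above for higher calls and below for lower calls, in the fit without a block and in the fit with one. Without it, Bap1KO was higher than WT in 2 of the 36, or 5.56%, Ndrg1 and Gpi1, and lower in 0, with 9.72% of all genes called, 3.36% higher and 6.37% lower. The median log2 fold change was 0.02, against 0.00 over all genes. With media batch as a block, which pairs the libraries of a batch, 8 genes were higher and 2 lower, or 27.8% of the 36, and 29% of all genes were called, 11.9% higher and 17.2% lower. Library ranges of 6 genes lay wholly above WT and of 3 wholly below, against 32.3% of all genes with no overlap, 14.5% above and 17.8% below. Without Bap1KO replicate 2, 1 gene was called, Ndrg1, higher, against 5.72% of all genes, 1.55% higher and 4.17% lower, and the median was 0.10. Ranges then lay above WT for 9 genes and below for 3, against 43.7% of all genes, 20.9% above and 22.7% below. This omission kept WT replicate 2 of the same batch B, so the groups were no longer matched by batch. In that batch 19 of the 36 had their lowest library in both groups, or 52.8%, against 20.5% of all genes. The part of the unmatched library in these values was not tested. Bap1KO and WT also differ in 4-OHT and ethanol, which cannot be told apart from the deletion.

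Ndrg1, a stress response gene induced by HIF and repressed by Myc, had the largest change. It read 47.4, 36.2 and 40.2 CPM in Smn1OE_K186R, 35.8, 35.8 and 40.5 CPM in Smn1OE, 77.9, 37.5 and 58.8 CPM in Bap1KO and 27.7, 15.1 and 24.2 CPM in WT. Every Bap1KO library was above every WT library, and the SMN libraries lay between, above WT and overlapping Bap1KO at its replicate 2. Bap1KO exceeded WT by 1.38 (SE 0.25, adjusted p = 0.00697) on the log2 scale, or 1.36 (adjusted p = 4.54e-07) with the block. Within batches A, B and C the log2 ratios were 1.49, 1.31 and 1.27. Against Bap1KO the Smn1OE value was -0.64 (adjusted p = 0.0639), not called, but called without Bap1KO replicate 2 (0.00915) and with media batch as a random effect (0.0493). Without that replicate Smn1OE_K186R was called as well (0.0223). Against WT, Ndrg1 was higher by 0.74 (adjusted p = 0.025) in Smn1OE and 0.88 (adjusted p = 0.0107) in Smn1OE_K186R, the first not without Smn1OE replicate 3 (0.0718) or WT replicate 2 (0.0927).

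Gpi1 read 821, 678 and 771 CPM in Smn1OE_K186R, 815, 761 and 749 CPM in Smn1OE, 710, 809 and 810 CPM in Bap1KO and 583, 618 and 616 CPM in WT. WT was the low group, with all 9 other libraries above it. Bap1KO exceeded WT by 0.36 (SE 0.09, adjusted p = 0.0249), or adjusted p = 0.000885 with the block, and by 0.28, 0.39 and 0.39 within batches A, B and C. The call was lost without Bap1KO replicates 2 (0.0756) or 3 (0.0967) and without WT replicates 1 (0.0955), 2 (0.0635) or 3 (0.0588).

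The block added 8 calls. Slc16a3 had log2 ratios of -0.62, -0.83 and -0.59 in Bap1KO within the 3 batches, and its log2 fold change of -0.67 had adjusted p = 0.103 without the block and 2.2e-05 with it. DESeq2 also called Slc16a3, at adjusted p = 0.0439. P4ha2, at -0.37 (adjusted p = 0.381) without the block and -0.40 (adjusted p = 0.00356) with it, was lower in each batch. With the block, all 10 FAP and fibroblast markers were also called lower (median -0.67), where 17.2% of all genes were. Without it, 1 of the 10 was called lower. The part of that list in the P4ha2 value was not tested. The other members that the block added were higher and their changes small. Pkm read 3460, 2790 and 3090 CPM in Smn1OE_K186R, 3440, 3040 and 2810 CPM in Smn1OE, 3080, 3830 and 3810 CPM in Bap1KO and 2750, 3110 and 2970 CPM in WT, with an overlap between Bap1KO and WT across batches but a higher Bap1KO value within each. Its blocked log2 fold change was 0.27 (adjusted p = 0.00837). Bnip3l read 129, 115 and 109 CPM in Smn1OE_K186R, 122, 115 and 98.3 CPM in Smn1OE, 125, 117 and 129 CPM in Bap1KO and 99.7, 98.7 and 115 CPM in WT. Bap1KO lay just above WT with no overlap, with a blocked value of 0.25 (adjusted p = 0.00704). Pgam1, the phosphoglycerate mutase, read 284, 235 and 258 CPM in Smn1OE_K186R, 288, 253 and 247 CPM in Smn1OE, 265, 275 and 280 CPM in Bap1KO and 223, 243 and 249 CPM in WT. It had no overlap between Bap1KO and WT and a blocked adjusted p of 0.0196. Hk1, Adm and Tpi1 passed with blocked adjusted p of 0.017, 0.0249 and 0.0489, against 0.113, 0.406 and 0.259 without the block.

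**Figure D5:**
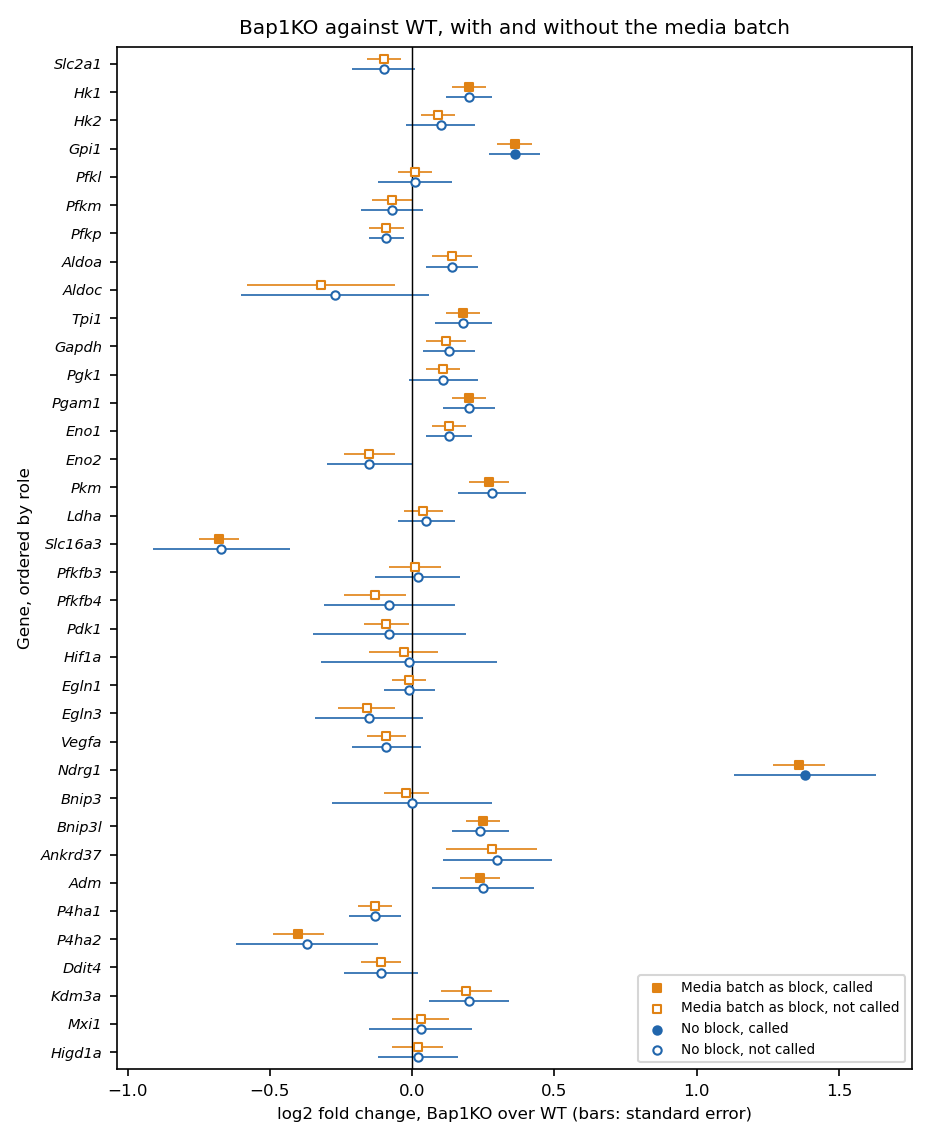
Log2 fold change of each of the 36 genes in Bap1KO over WT (x axis), fitted without a block (circles) and with media batch as a block (squares), with standard errors as bars; filled points were called at an adjusted p under 0.05. Ndrg1 lies farthest right, at 1.38 and 1.36, Slc16a3 farthest left, at -0.67 and -0.68, and 10 squares are filled, against 2 circles.

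Hif1a was not called with the block or without it, at -0.01 (adjusted p = 0.993), with batch ratios of 0.47, -0.29 and -0.28. Over all 36 genes, 14 were higher in Bap1KO in every batch and 7 were lower, against 28.2% and 30.7% of all genes.

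The K186R form was not distinguishable from unmutated SMN in these genes. None of the 36 was called in Smn1OE_K186R against Smn1OE by edgeR, and 0 genes (0%) were called over the whole table by edgeR or DESeq2. At an unadjusted p under 0.05, edgeR had 388 genes, or 2.34%, none of the 36. With media batch as a block 48 genes were called, or 0.289%, still none of the 36. Unadjusted, the block had 1910 genes under 0.05, or 11.5%, of which 7 were members. Log2 fold changes of the members ran from -0.09 to 0.49. Their 95% intervals had a median half-width of 0.27 and a widest of 0.76, so changes of that size could go undetected here. Only 1 member had ranges with no overlap, Pfkp, higher in Smn1OE_K186R, against 6.78% of all genes, 3.28% higher and 3.5% lower. Hif1a, the highest value at 0.49 (adjusted p = 0.997, or 0.204 with the block), was higher in each batch, by 0.33, 0.71 and 0.33. P4ha2 was higher by 0.44, 0.06 and 0.21 and Pdk1 by 0.27, 0.37 and 0.24 within batches D, E and F, neither called. In all, 10 members were higher in every batch and 2 lower, against 17.9 and 16.3% of all genes.

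Beyond the 36, 84 further genes of the pathway were listed in 5 groups, and 79 of them were tested. In Smn1OE against Bap1KO, 10 of the 79 were higher and 22 lower, where 15.8% of all genes were higher and 17.7% lower. In Smn1OE_K186R against Bap1KO 10 were higher and 18 lower, where 16.1% of all genes were higher and 16.5% lower. Leaving out Bap1KO replicate 2, the counts were 12 higher and 26 lower in Smn1OE, against 15.5% and 17.4% of all genes, and 12 higher and 20 lower in Smn1OE_K186R, against 15.1% and 15.9%. Further HIF targets, the largest list, had 13 of 29 lower in Smn1OE and 10 of 29 in Smn1OE_K186R, with 3 higher in each. With that library left out they were 15 lower and 3 higher in Smn1OE and 10 lower and 4 higher in Smn1OE_K186R. Of the 12 genes around pyruvate dehydrogenase and mitochondrial pyruvate, 4 were lower in each comparison, with 2 higher in Smn1OE and 1 in Smn1OE_K186R. For pentose phosphate and glycogen, 3 of 15 were lower in each, with 2 higher in Smn1OE and 3 in Smn1OE_K186R. Both lists had the same counts without that library. Of 13 other isozymes and glucose transporters, 1 was higher and 2 lower in Smn1OE, and 1 higher and 1 lower in Smn1OE_K186R. Leaving that library out gave 3 higher and 3 lower in Smn1OE, and 2 higher and 2 lower in Smn1OE_K186R. Plod1, a lysyl hydroxylase of collagen, averaged 73.8 and 66.8 CPM in Smn1OE_K186R and Smn1OE, against 160 CPM in Bap1KO. The change was -1.12 (adjusted p = 0.000721) on the log2 scale in Smn1OE_K186R. Ppp1r3c, which targets a phosphatase to glycogen, averaged 0.703 CPM in Smn1OE, against 4.09 CPM in Bap1KO (log2 fold change -2.53, adjusted p = 0.0027). Pgf, the placental relative of Vegfa, went the other way, by 1.51 (adjusted p = 0.00792) in Smn1OE and 1.23 (adjusted p = 0.0211) in Smn1OE_K186R. The second call was lost without Smn1OE_K186R replicate 1 (0.0561) or Bap1KO replicates 1 (0.0656) or 3 (0.0746). Car9, carbonic anhydrase IX, changed by -1.35 (adjusted p = 0.0226) in Smn1OE, a call lost without Smn1OE replicates 2 (0.0548) or 3 (0.0852) or Bap1KO replicates 1 (0.0942) or 3 (0.0615).

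The 4 pyruvate dehydrogenase kinases did not move together. Pdk4, the isoform tied to fatty acid use, averaged 18.2 ± 2.69 CPM in Smn1OE_K186R, 21.3 ± 2.61 CPM in Smn1OE and 3.98 ± 2.48 CPM in Bap1KO (SD, n = 3 each). It was higher than Bap1KO by 2.19 (adjusted p = 0.00283) in Smn1OE_K186R and by 2.42 (adjusted p = 0.00157) in Smn1OE. Pdk2 and Pdk3 were lower, like Pdk1, at -0.70 and -0.88 in Smn1OE_K186R and -0.77 and -0.95 in Smn1OE, each called. Pdk3 lies on the X chromosome, and the SMN libraries differ from the rest in Xist, whose part in the Pdk3 value was not tested. Of the 10 other genes of the HIF pathway core, 2 were called, both higher in each comparison, and without Bap1KO replicate 2 also Vhl, lower in each (0.0377 in Smn1OE and 0.0498 in Smn1OE_K186R). Cited2, a competitor for the HIF coactivator p300, averaged 270 CPM in Smn1OE, against 146 CPM in Bap1KO (0.89, adjusted p = 0.00453). Hif1an, an asparagine hydroxylase that restrains HIF, was higher by 0.30 (adjusted p = 0.0228) in Smn1OE and 0.34 (adjusted p = 0.0133) in Smn1OE_K186R. The first call was lost without Smn1OE replicates 1 (0.094) or 3 (0.067) or Bap1KO replicates 1 (0.06) or 3 (0.0982), and the second without Bap1KO replicate 3 (0.0594).

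In Bap1KO against WT, 5 of the 79 were higher and 10 lower, where 3.36% of all genes were higher and 6.37% lower. With the block 15 were higher and 22 lower, where 11.9% and 17.2% of all genes were. Without Bap1KO replicate 2, and with WT replicate 2 of the same batch kept, 4 were higher and 7 lower, against 1.55% and 4.17% of all genes. That omission added calls for Cited2 (0.0431), Pdk4 (0.0205), Pgf (0.0255), Car9 (0.0462) and Ero1l (0.0339). Ldhb, the heart-type lactate dehydrogenase subunit, averaged 23.7 ± 2.67 CPM in Bap1KO, against 53.4 ± 5.62 CPM in WT (SD, n = 3 each), a log2 fold change of -1.17 (adjusted p = 0.002). Length-scaled, Ldhb made up 2.72% of lactate dehydrogenase RNA in Bap1KO, or 2.59% without its replicate 2, against 6.09% in WT, with no overlap between libraries (exact 2-sided permutation p = 0.1, or 0.247 adjusted). The SMN groups, at 3.23% in Smn1OE_K186R and 3.36% in Smn1OE, also lay below WT. Slc2a3, the glucose carrier GLUT3, averaged 1.46 CPM in Bap1KO, against 5.02 CPM in WT (-1.77, adjusted p = 0.0349), and lost its call without Bap1KO replicates 1 (0.0805) or 3 (0.115) or WT replicates 1 (0.0856) or 2 (0.111). Of the 12 genes around pyruvate dehydrogenase and mitochondrial pyruvate, 5 were lower, or 2 without Bap1KO replicate 2, among the 5 Pdk2 at -0.60 (adjusted p = 0.0232). That call was lost without Bap1KO replicates 2 (0.0702) or 3 (0.0957) or WT replicates 2 (0.0699) or 3 (0.0872). Epas1, the HIF-2 alpha subunit, was lower, at -0.78 (adjusted p = 0.0422), but not without Bap1KO replicates 1 (0.107), 2 (0.106) or 3 (0.0669) or WT replicates 2 (0.138) or 3 (0.111).

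Against WT, 23 of the 79 were higher and 30 lower in Smn1OE, where 23.8% of all genes were higher and 26.6% lower. In Smn1OE_K186R 23 were higher and 28 lower, where 24% of all genes were higher and 26.5% lower. Eno3, the muscle-type enolase, averaged 198 and 208 CPM in Smn1OE_K186R and Smn1OE, against 84.7 CPM in WT, higher by 1.22 (adjusted p = 0.0152) and 1.30 (adjusted p = 0.0113). These calls were lost without Smn1OE_K186R replicate 3 (0.0664) or WT replicate 1 (0.0666), and without WT replicate 1 (0.0514). The skeletal actin gene Acta1, of the myogenic marker list, averaged 394 and 469 CPM in Smn1OE_K186R and Smn1OE, against 130 CPM in WT. Des, of the same list, averaged 1.58 and 1.76 CPM against 3.89 CPM in WT, and the other myogenic markers averaged under 1 CPM. The part of that list in the Eno3 value was not tested. Gbe1, the glycogen branching enzyme, was higher by 1.44 in Smn1OE_K186R and 1.34 in Smn1OE, and Pygl, the liver-type glycogen phosphorylase, was lower, at -1.26 and -1.53, all called.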

How the data were processed

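RNA extracted with TRIzol was made into TruSeq libraries and read as paired ends on an Illumina HiSeq system, per the labels' protocols. The deposited files hold raw read counts per Ensembl gene, 1 file per library, with no normalization by the authors. Tools given in the submitters' processing notes are STAR 2.6.1, HTSeq 0.9.1, cutadapt 1.4.2, CASAVA 1.8.2 and DESeq2, with build GRCm39. The annotation and the strand setting are not given in the sources used here. The 5 closing rows that name no gene, 11.1 to 14.6% of each file's total, were left out. Symbols came from GENCODE M21 (GRCm38), which matched 55154 IDs, and promoters from RefSeq (GRCm38.p6), so no position refers to the authors' build.

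The test was edgeR's (version 4.0.16, R 4.3.3), with TMM, filterByExpr with a minimum count of 10, and a quasi-likelihood fit of 4 groups over 12 libraries with 8 residual degrees of freedom (common biological coefficient of variation 0.179). All p-values are 2-sided. Adjustment was by Benjamini-Hochberg over 16597 genes in the main fit, with calls at 0.05. Each alternative fit was adjusted over the genes it tested, such as 17089 without Bap1KO replicate 2. The isozyme shares were adjusted over their 42 differences. CPM are TMM-normalised. A prior count of 0.125 enters each log2 fold change. The fit was tested on simulated data with known changes. Deviations from the group means correlated at 0.31, 0.43 and 0.24 between Bap1KO and WT libraries of 1 media batch and at 0.38, 0.30 and 0.43 between SMN libraries of 1 batch, so the batch numbers were taken as pairing them, and a fit with media batch as a block (4 residual degrees of freedom) was the alternative. Across batches, limma 3.58.1 (voom) took the batch as a random effect (correlation 0.45). Other alternatives were DESeq2 1.42.0, size factors, no low-count filter, only the 6 libraries compared, and each library left out. Isozyme shares used exon length and exact permutation tests (scipy 1.17.1).

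Values in every library are given for members called in Bap1KO against WT or between the SMN groups, with or without the block, and for the 5 called members with the largest change in each comparison that sets Smn1OE or Smn1OE_K186R against Bap1KO or WT. Other pathway genes are named from the 4 largest called changes per list, and Hif1a, Pfkfb4, the phosphofructokinases, Slc2a1 and any gene beyond these were chosen after their values were seen. The members and lists were chosen with earlier results of these data known.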

Additional observations from a re-analysis of the deposited data

How the results depend on the processing

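No log2 fold change of a called member changed sign under any alternative. In Bap1KO against WT, 2 members were called without a block, 10 with media batch as a block, and 1 to 2 when single libraries were left out. Over all genes tested, 9.72% were called without the block and 29% with it. The block, which pairs libraries of the same media batch, left Smn1OE_K186R against Smn1OE at 0 members. With media batch as a random effect, the member counts across batches stayed within 1.5 times of those without it. Over single-library omissions, the members called ranged from 12 to 23 in Smn1OE against Bap1KO and 12 to 19 in Smn1OE_K186R against Bap1KO. Against WT they ranged from 13 to 17 in Smn1OE and 12 to 16 in Smn1OE_K186R. The 23 and the 19 came without Bap1KO replicate 2, where 32.9% and 31.1% of all genes were called. For the other omissions and the random effect the share over all genes is not given, so those counts are not set against it. Each pair of a called member and an omitted library that ended its call was counted. There were 20, 18, 13 and 23 such pairs in those 4 comparisons, and the same member could enter several times. The cause of these losses was not tested. Aldoc, at 0.507 to 2.71 CPM, and Ankrd37, at 2.15 to 5.42 CPM, rest on the fewest reads of the 36. Intervals of Smn1OE_K186R against Smn1OE have a median half-width of 0.27 on the log2 scale.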

Other observations

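In 3 of the 6 media batches, singled out after the values were seen, many of the 36 genes had an extreme library in both groups that shared the batch. In batch B, 19 of the 36 had their lowest library in both Bap1KO and WT, or 52.8%, against 20.5% of all genes tested. They included Slc16a3, Pdk1, Hif1a, Egln1, Ndrg1, Bnip3, P4ha1 and P4ha2. In batch F, 15 had their lowest library in both Smn1OE_K186R and Smn1OE, or 41.7%, against 21.1% of all genes, among them Pfkl, Ldha, Slc16a3, Pdk1, Hif1a, Bnip3, Adm and P4ha2. Batch D held the highest library of both SMN groups for 15 members, or 41.7%, against 15.8% of all genes, 10 of them glycolytic enzymes such as Gpi1, Aldoa, Tpi1, Pgk1, Eno1 and Pkm. In batch A, 11 members had their lowest library in both Bap1KO and WT and 10 their highest, or 30.6% and 27.8%, against 19.4% and 17% of all genes. In batch C, 1 was lowest and 10 were highest in both, or 2.78% and 27.8%, against 13.8% and 16.4% of all genes. In batch E, 1 was lowest and 4 were highest in both SMN groups, or 2.78% and 11.1%, against 15.6% and 18.7% of all genes. The opposite extremes were also few, with 3 members highest in batch B (8.33%, against 20% of all genes), 1 highest in batch F (2.78%, against 17.5%) and 1 lowest in batch D (2.78%, against 14.7%). What differed between the media batches beyond their letter is not given in the sources used here.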
